A study of Mus musculus with 12 samples.

Results

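Among the livers of 6 adult male mice born to dams lacking uncoupling protein 1 (UCP1), 3 carried a bright signal for Tff3 and 3 did not. Those 6 arrays, of 12 in the series, are described here. An array was placed on the Tff3-high side when its log2 signal for the Tff3 probe set was 8 or more, which took arrays 8, 10 and 11, and on the Tff3-low side when it was under 8, which took arrays 7, 9 and 12. The last array inside the threshold was array 10 at 10.43, and the first outside it was array 12 at 4.89. The 6 arrays from livers of offspring of wild-type (WT) dams, arrays 1 to 6, serve only as a reference range.

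All 12 mice were C57BL/6J males of 4 to 5 months, kept at 23 °C on standard chow, and the labels give every one of them as heterozygous (HET) for the UCP1 knockout. UCP1-KO or WT dams had been mated with HET sires, so the reference mice carry the knockout allele as well. By this breeding the allele lacking UCP1 comes from the mother in one group and from the father in the other, and that origin cannot be told apart from the genotype of the dam. Both sides of the split come from UCP1-KO dams, and nothing in the labels distinguishes them from each other. The labels do not say which mice shared a litter. Total RNA of each liver was measured on 1 array, and the 3 mice of a side are therefore the number behind every mean and standard deviation (SD) below. Because the sides were chosen by a measured gene, all differences between them are given as descriptions, with no test.

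Tff3 encodes a trefoil factor, a small secreted peptide that goblet cells of the gut release with mucus and that protects and repairs epithelial surfaces. Hepatocytes do most of the liver's metabolic work: they store and make glucose, break down amino acids, oxidise and synthesise lipids, and inactivate steroids and drugs. In rodents, many of their genes differ between the sexes under the pattern of growth hormone release, follow the daily clock and the feeding cycle, and are expressed at different levels near the portal and the central vein. Metallothioneins are small cysteine-rich proteins that bind zinc and copper, and their genes are classic responders to metals, glucocorticoids and inflammation.

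Sequences upstream of the metallothionein genes are shown because Mt1 and Mt2, which lie next to each other on chromosome 8, were high on the same arrays, and those of the other leading genes because they were high or low with them. RefSeq's promoter table for GRCm38.p6 held 4 of the 7 genes looked up (Mmd2, Mt1, Mt2 and Pklr), and Tff3, Cyp17a1 and Dmbt1 had no entry in it. The 250 bases before each start were searched on both strands for the metal response cores TGCACNC and TGCGCNC, the glucocorticoid response palindrome (GNACA and TGTNC with any 3 bases between), the E-box CACGTG, the cAMP response element TGACGTCA and the shorter TGACG it contains, and the STAT5 motif TTCNNNGAA. Capitals mark the matches. Positions count back from the start, whose preceding base is -1. The whole Mt2 window is printed first (chr8:94172368-94172617, plus strand), with metal response cores at -223 and -128 and, on the opposite strand, at -50. The next is a stretch of the Mt1 promoter (chr8:94178987-94179015, plus strand) with the glucocorticoid palindrome at -94, followed by another Mt1 stretch (chr8:94179058-94179080, plus strand) with a metal response core at -23. The last is from Mmd2 (chr5:142608834-142608856, minus strand), with a metal response core at -96.
Mt2: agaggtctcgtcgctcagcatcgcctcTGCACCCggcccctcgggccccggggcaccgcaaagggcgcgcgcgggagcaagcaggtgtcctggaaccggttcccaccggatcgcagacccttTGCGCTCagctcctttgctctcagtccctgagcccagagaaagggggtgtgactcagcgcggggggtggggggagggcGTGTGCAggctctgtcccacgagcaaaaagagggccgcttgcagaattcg
Mt1, glucocorticoid palindrome: cactatagGGACATGATGTTCcacacgtc
Mt1, metal response core: tcccgctgTGCACACtggcgctc
Mmd2, metal response core: tggcagcgTGCGCCCaagtcccc

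At least 1 metal response core lay in 21.4% of the 32851 promoters of the table (TGCACNC in 10.4%, TGCGCNC in 12.5%). The glucocorticoid palindrome lay in 0.387%. Mt1 also held TGACG, on the opposite strand at -77, which 17.8% of promoters hold. CACGTG (6.02% of promoters), TGACGTCA (1.55%) and TTCNNNGAA (7.02%) had no match in these windows, and the Pklr window had no match to any of the motifs. A match is a run of letters only, and no binding was measured. The outermost annotated span of Mt1 reaches 206 bases and that of Mmd2 184 bases into the window, so transcripts with earlier starts cross it.

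The arrays were alike in overall signal and, by the hepatocyte markers, in tissue. The median of all gene probe sets was 6.19 to 6.28 on the 12 arrays. A gene is called above background here when its signal exceeds that array's own median of negative control probe sets, which was 6.25, 6.36 and 6.15 on Tff3-high arrays 8, 10 and 11, 6.27, 5.96 and 6.27 on Tff3-low arrays 7, 9 and 12, and 6.14 to 6.62 on the WT-dam arrays. All 12 hepatocyte markers (among them Alb and Apoa1) were above background on every array.

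Tff3, the gene that defines the sides, read 10.96, 10.43 and 12.23 on arrays 8, 10 and 11 and 4.62, 4.49 and 4.89 on arrays 7, 9 and 12. The 6 WT-dam arrays read 4.29, 4.47, 4.48, 3.87, 4.33 and 5.77. Tff3 was thus below background on all 9 other livers, so its fold is a lower bound: at least 32.8-fold, taking each dim array at its negative control median. The rule used this gene, and its values are a description of the choice.

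Mmd2 and Cyp17a1 had the largest differences of all 22205 other probe sets. Mmd2, a membrane protein of the progestin and adipoQ receptor family, read 8.80, 9.61 and 11.52 on arrays 8, 10 and 11 against 5.32, 5.01 and 4.31 on arrays 7, 9 and 12. As with Tff3, the low side was below background, which makes the difference at least 14-fold (at least 8.18-fold without array 11 and 21-fold without array 8). WT-dam arrays read 4.55 to 6.33, and 1 of the 6 was above background. Cyp17a1, the hydroxylase and lyase that turns progestogens into androgen precursors, read 11.32, 11.26 and 15.09 on the high side and 8.33, 8.29 and 7.88 on the low side. Its means were 12.56 ± 2.20 (SD, n = 3) and 8.16 ± 0.25 (n = 3), a log2 difference of 4.39 or 21.0-fold. The fold was 8.71 without array 11, 32.2 without array 8 and 32.9 without array 10. The sides did not overlap, array 11 stood far above the rest, and all 3 high arrays lay above the WT-dam range of 6.41 to 9.80.

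Mt1 and Mt2 had the next largest differences in the higher direction. Mt1 read 14.89, 14.45 and 16.70 on arrays 8, 10 and 11 and 12.01, 11.29 and 11.77 on arrays 7, 9 and 12, a difference of 3.66 or 12.6-fold. Mt2 read 10.89, 10.83 and 15.59 against 8.98, 8.26 and 9.17, a difference of 3.63 or 12.4-fold. Without array 11 the folds were 7.90 for Mt1 and 4.16 for Mt2 (a log2 difference of 2.06), and for Mt2 the fold was 21.2 without array 8 and 21.7 without array 10. High metallothionein signal also occurred without Tff3: WT-dam array 2 read 16.16 for Mt1 and 14.91 for Mt2, where Tff3 was 4.47. The other 5 WT-dam arrays, at 10.87 to 12.12 for Mt1 and 8.21 to 9.42 for Mt2, lay near the Tff3-low arrays.

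Pklr, the liver pyruvate kinase that ends glycolysis, was lower on the Tff3-high side. It read 11.26, 10.77 and 10.98 on arrays 8, 10 and 11 and 13.48, 13.37 and 14.24 on arrays 7, 9 and 12, with means of 11.00 ± 0.24 and 13.70 ± 0.48 (SD, n = 3 each). The difference was -2.69 on the log2 scale, or 6.46-fold lower. All 3 high arrays lay below the WT-dam range of 13.03 to 15.29, and all 3 low arrays lay inside it.

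**Figure D1:**
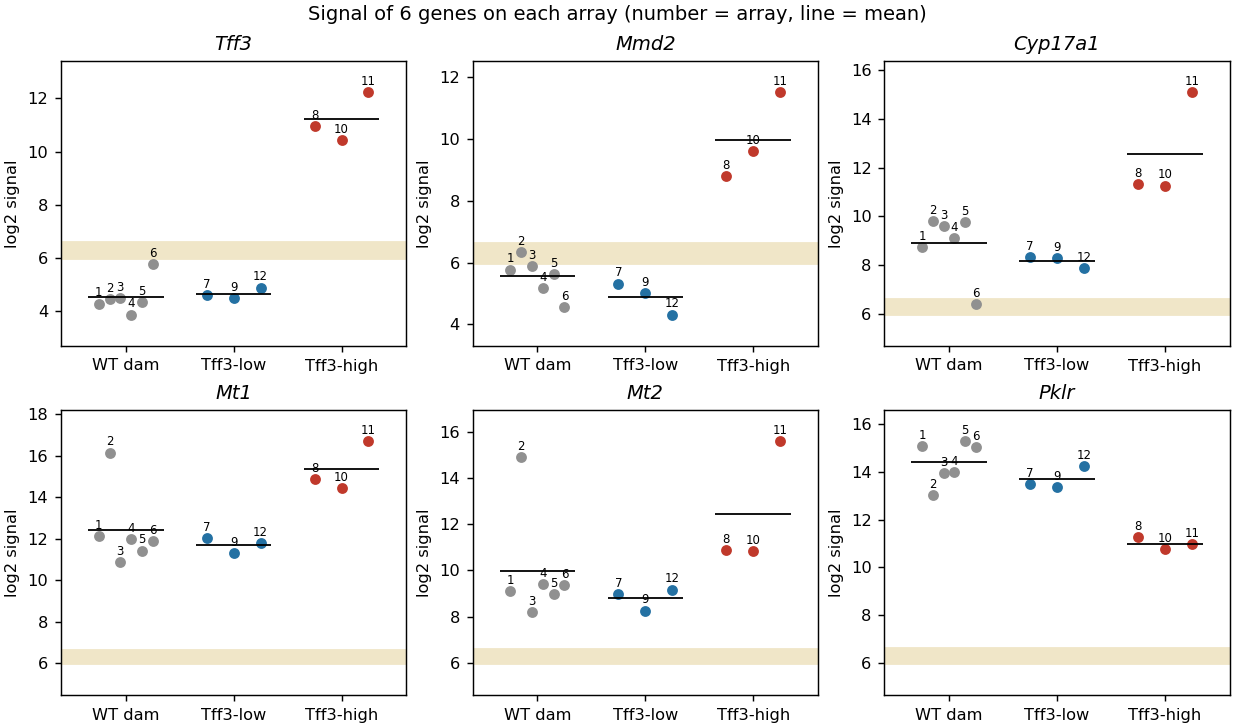
Log2 signal of 6 genes on each array (vertical axis), with the arrays of WT dams, Tff3-low arrays and Tff3-high arrays side by side. Each point is 1 array with its number, and lines are means. Tff3-high arrays 8, 10 and 11 stand apart for Tff3, Mmd2 and Cyp17a1, WT-dam array 2 reaches their level for Mt1 at 16.16, and Pklr is lowest on the same 3 arrays at 10.77 to 11.26.

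Across all 22205 probe sets other than Tff3, a probe set was counted as higher when every Tff3-high array exceeded every Tff3-low array and the means differed by at least 1 log2 (2-fold), and as lower in the mirror case. By this count 60 probe sets were higher (0.270% of those compared) and 110 were lower (0.495%). At any size of difference the sides did not overlap at 1602 probe sets in the higher direction (7.21%) and at 1650 in the lower direction (7.43%). The median difference of all probe sets was 0.01. Of the 60 higher probe sets 14 differed by at least 4-fold, and of the 110 lower ones 11 did.

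Array 11 was the furthest of the 3 Tff3-high arrays at 41 of the 60 higher probe sets and at 61 of the 110 lower ones. The WT-dam arrays did not always lie with the Tff3-low side. At 30 of the 60 higher and 71 of the 110 lower probe sets all 3 Tff3-high arrays were outside the WT-dam range, and at 27 and 44 all 3 Tff3-low arrays were inside it. Both held at 14 of the higher and 26 of the lower probe sets. Over all 22205 probe sets, all 3 Tff3-high arrays were outside the WT-dam range, in either direction, at 1845. The counted probe sets were chosen for Tff3-high arrays that stand apart, which by itself favours a place outside that range. Among the lower probe sets array 9 was the furthest of the Tff3-low arrays at 69. The higher probe sets include 4 that were below background on every Tff3-high array, and 13 that were below it on every Tff3-low array.

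**Figure D2:**
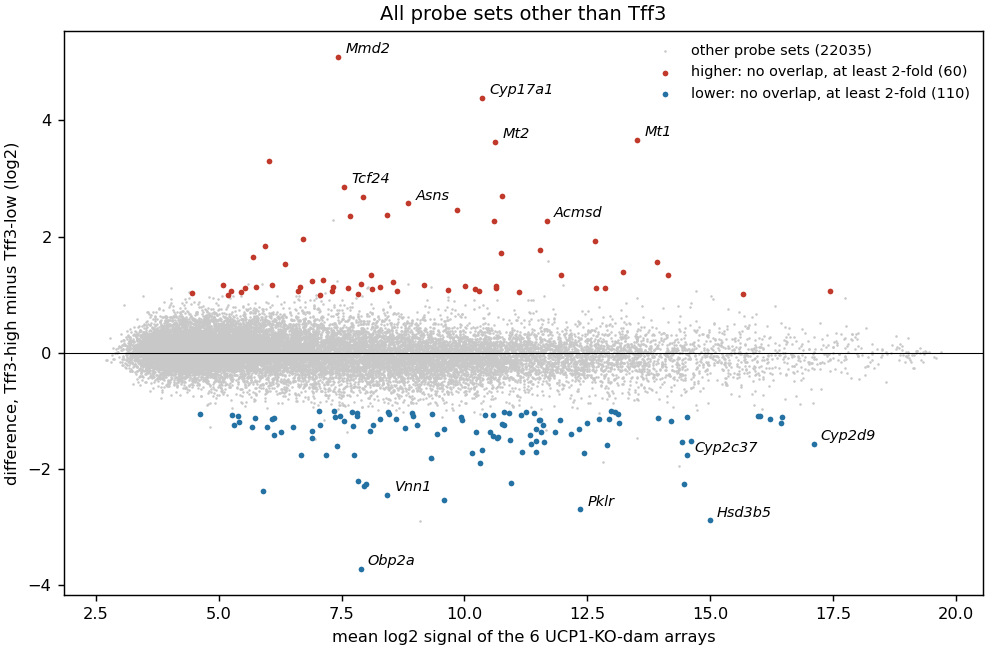
Difference between the means of the Tff3-high and Tff3-low arrays (vertical axis, log2) against the mean log2 signal of the 6 UCP1-KO-dam arrays (horizontal axis) for the 22205 probe sets other than Tff3. The 60 higher probe sets are red and the 110 lower ones blue, and Mmd2 (5.09), Cyp17a1 (4.39) and Obp2a (-3.72) lie furthest out.

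Among the other leading genes that were higher, several handle amino acids, NAD and one-carbon units. Asns, the enzyme that makes asparagine, read 10.06, 9.82 and 10.57 on arrays 8, 10 and 11 and 7.39, 7.65 and 7.69 on arrays 7, 9 and 12. Its difference was 2.57, or 5.95-fold, with tight sides (10.15 ± 0.39 and 7.58 ± 0.16, SD, n = 3 each), and the WT-dam arrays at 6.93 to 7.79 lay with the low side. Acmsd, which steers tryptophan breakdown away from NAD synthesis, read 12.54, 12.28 and 13.61 against 10.25, 10.62 and 10.73, a difference of 2.27. Nnmt, which methylates nicotinamide, read 13.20, 13.57 and 14.10 against 11.66, 11.91 and 11.54, a difference of 1.92. For both genes the Tff3-high arrays lay above the WT-dam range, which was 10.74 to 11.70 for Acmsd and 11.04 to 12.62 for Nnmt. The Tff3-low arrays lay below that range for Acmsd and inside it for Nnmt.

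Lipid and membrane genes were also among the leading higher ones. Abcd2, a peroxisomal carrier of very long chain fatty acids, read 11.92, 11.63 and 11.66 on the high side and 9.37, 9.69 and 9.36 on the low side, a difference of 2.27 or 4.81-fold, with WT-dam arrays at 8.18 to 9.70. Abhd2, a hydrolase of the alpha/beta family, read 12.09, 12.19 and 12.97 against 10.58, 10.96 and 10.44, a difference of 1.76, and here too the high arrays lay above the WT-dam range of 10.12 to 11.27. Sytl5, a synaptotagmin-like protein that binds the vesicle GTPase Rab27, read 7.15, 7.13 and 8.75 against 4.64, 4.21 and 4.28. Its low side was below background, so the difference is at least 2.84-fold. Atp6v0d2, a subunit of the proton pump of acidic organelles, read 7.04, 6.43 and 9.61 against 5.98, 4.85 and 6.40. Its difference of 1.95 shrank to 0.99 without array 11, and the WT-dam range of 5.94 to 7.21 took in arrays 8 and 10.

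The rest of the leading higher genes had varied roles. Tcf24, a basic helix-loop-helix transcription factor, read 8.84, 9.61 and 8.49 on arrays 8, 10 and 11 and 6.01, 6.25 and 6.08 on arrays 7, 9 and 12, a difference of 2.86, with WT-dam arrays at 4.58 to 6.12. It is one of the leading genes for which array 11 was not the furthest. Noct, the rhythmic phosphatase nocturnin, read 9.06, 9.24 and 9.54 against 5.87, 8.27 and 5.66, a difference of 2.68. Tff3-low array 9 and the brightest WT-dam array at 7.94 came closest to its high side. Igfbp1, an insulin-repressed binding protein of insulin-like growth factors, read 11.66, 10.87 and 10.68 against 10.13, 7.65 and 8.08, a difference of 2.45. WT-dam array 2, which was also bright for both metallothioneins, read higher than any of these, at 12.62. Cib3, a calcium-binding protein, read 9.10, 8.90 and 10.81 against 7.55, 6.94 and 7.22, a difference of 2.37. Cyp2b10, a cytochrome P450 of drug metabolism, read 8.06, 8.06 and 10.43 against 6.17, 7.00 and 6.30. Its difference of 2.36 was 1.57 without array 11. For this gene the low side stood near the bottom of the WT-dam range of 5.99 to 9.52, and arrays 8 and 10 were inside it.

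The leading lower genes were mostly enzymes and carriers of hepatocytes. Obp2a, an odorant-binding lipocalin, had the largest difference, with 6.41, 5.81 and 5.86 on arrays 8, 10 and 11 and 8.83, 9.99 and 10.42 on arrays 7, 9 and 12, or -3.72. Only 1 of the 3 high arrays was above background for it. Hsd3b5, a steroid dehydrogenase of male mouse liver, read 15.08, 15.67 and 9.92 against 16.47, 16.47 and 16.36. Its difference of -2.88 rested on array 11 and was -1.06 without it. The other Tff3-high arrays still lay below the Tff3-low ones and below the WT-dam range of 15.73 to 16.61.

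Vnn1, the pantetheinase that frees cysteamine from pantetheine, read 8.22, 6.86 and 6.56 on the high side and 9.73, 10.21 and 9.01 on the low side, a difference of -2.44. Pfkfb3, which sets the level of the allosteric activator of phosphofructokinase, read 6.97, 6.80 and 6.64 against 8.46, 9.59 and 9.23, a difference of -2.29. For both genes the Tff3-high arrays lay below the WT-dam range (8.39 to 9.39 for Vnn1, 7.85 to 8.66 for Pfkfb3), and 2 of the 3 Tff3-low arrays lay above it. Dio1, the deiodinase that activates thyroid hormone in liver, read 7.08, 7.71 and 5.83 against 8.73, 9.88 and 8.74, a difference of -2.25. Slc22a7, an organic anion carrier of the hepatocyte's blood side, read 7.31, 6.01 and 6.85 against 8.49, 8.45 and 9.86, a difference of -2.21. Tff3-low arrays 7 and 9 were themselves below the WT-dam range of 9.12 to 10.59 for Slc22a7, so this gene was lower than the reference on 5 of the 6 UCP1-KO-dam arrays.

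The remaining lower leading genes differed by -1.72 to -1.90. Cyp2c37, a cytochrome P450 of fatty acid and drug oxidation, read 13.74, 13.90 and 13.32 on arrays 8, 10 and 11 and 15.41, 15.53 and 15.29 on arrays 7, 9 and 12. Its Tff3-low arrays lay inside the WT-dam range of 15.15 to 15.70 and its Tff3-high arrays well below it. Rarres1, a retinoic acid responsive gene, showed the same layout, with 8.33, 8.32 and 8.56 against 10.45, 9.87 and 10.32 and a WT-dam range of 9.75 to 10.62. Nceh1, a cholesteryl ester hydrolase, had a difference of -1.90, with 8.84 to 9.87 on the high side and 10.89 to 11.82 on the low side. The zinc finger gene Zfp979 had -1.76, the TGF-beta induced transcription factor Klf10 -1.76 and the short-chain dehydrogenase Sdr9c7 -1.72.

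**Figure D3:**
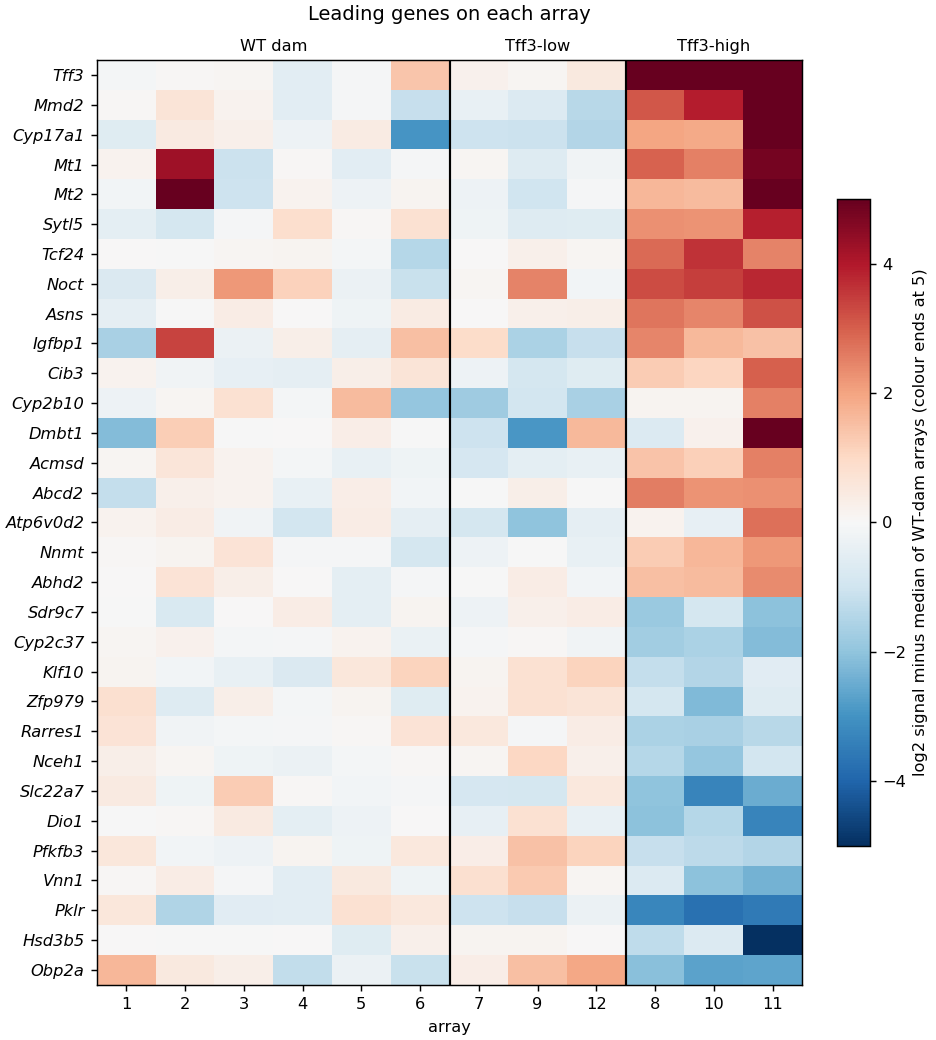
Log2 signal of the leading genes (rows) on each array (columns), as the difference from the median of the WT-dam arrays, with colour ends at 5. Columns 8, 10 and 11 are mostly red in the upper rows and blue in the lower rows, while columns 7, 9 and 12 mostly resemble columns 1 to 6. Dmbt1 on array 8 and Atp6v0d2 on array 10 lie below the WT-dam median. Further exceptions include array 2 for Mt1, Mt2 and Igfbp1, arrays 3 and 9 for Noct, array 6 for Cyp17a1, and arrays 9 and 12 for Obp2a.

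Dmbt1, a mucosal scavenger protein often expressed with trefoil factors, did not separate the sides. It read 6.28, 7.16 and 11.96 on arrays 8, 10 and 11 and 5.92, 4.04 and 8.57 on arrays 7, 9 and 12, and Tff3-low array 12 exceeded Tff3-high arrays 8 and 10. The difference of 2.29 was 0.55 without array 11 and 3.49 without array 12. The other trefoil genes were below background on all 12 arrays: Tff1 read 4.91 to 5.65 and Tff2 4.61 to 6.04 on the Tff3-high side. Of the 13 measured genes for trefoil, mucin, Reg and related secreted proteins 0 were counted as higher and 0 as lower (median difference 0.03), against 60 and 110 of 22205 in all.

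Within the metal-handling list, only the metallothionein genes Mt1 and Mt2 were counted, as higher, among 12 measured genes, and the median of the list was -0.02. Of all probe sets 0.270% were counted as higher and 0.495% as lower. The brain metallothionein Mt3 had a difference of 0.39 and the epithelial Mt4 0.06. The zinc exporter Slc30a1, the zinc importer Slc39a4 and the metal-sensing transcription factor Mtf1 had -0.67, -0.66 and -0.29, all with overlapping sides. The 19 measured glucocorticoid-responsive genes held 0 counted as higher and 2 as lower, with a median of -0.19. The sides did not overlap for 4 of the 19, all lower, against 7.43% of all probe sets. The 2 counted ones were the clock gene Per1 (-1.46, and -0.90 without array 9) and Angptl4, an inhibitor of lipoprotein lipase (-1.31). The receptor gene Nr3c1 had -0.23, and its textbook targets Fkbp5 and Tsc22d3 had -0.02 and -0.38. The iron-binding lipocalin Lcn2 had 1.24 with overlapping sides.

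Genes of fasting and glucose output were mostly alike on the sides. Of 17 measured, 2 were counted as higher and 0 as lower (median 0.10): Igfbp1, given above, and Got1, the cytosolic aspartate aminotransferase, with 13.85, 14.43 and 16.14 on arrays 8, 10 and 11 and 13.80, 13.00 and 13.62 on arrays 7, 9 and 12. The difference for Got1, 1.33, was 0.66 without array 11, which left 1 counted gene. Of all probe sets 0.270% were counted as higher. The sides did not overlap for 2 fasting genes in the higher direction and 1 in the lower, against 7.21% and 7.43% of all probe sets. Pck1, the first enzyme of gluconeogenesis from oxaloacetate, had -0.17 and the glucose-6-phosphatase gene G6pc 0.12.

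Sugar-using genes leaned lower. Among 15 measured genes of glycolysis, fructose use and the carbohydrate-responsive factor ChREBP, 0 were counted as higher and 2 as lower, and the sides did not overlap for 6, all lower (median -0.20). Over all probe sets 0.495% were counted as lower and 7.43% were lower without overlap, the shares against which this and the next lists' lower counts stand. Beside Pklr the other counted gene was Khk, the ketohexokinase that starts fructose metabolism, with 13.10, 13.37 and 13.67 against 14.23, 14.35 and 14.92, a difference of -1.12. The glucose transporter gene Slc2a2 had -0.88 and the glycerol phosphate dehydrogenase gene Gpd1 -0.87, both without overlap. The ChREBP gene itself, Mlxipl, had 0.12. The count of 2 was 1 without array 8 or array 12.

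Lipid synthesis did not share one direction. Of 25 measured genes of fatty acid synthesis 0 were counted as higher and 1 as lower, with a median of 0.04. The lower one was Lpin1, a phosphatidate phosphatase and coregulator (-1.36). Fasn, fatty acid synthase, had 0.04, the citrate lyase gene Acly 1.06 and the lipogenic regulator Thrsp -1.12, each with overlapping sides. In the cholesterol synthesis list 1 of 18 measured genes, Hsd17b7, was counted as lower (-1.14), and 0 as higher (median -0.15). That count was 0 without array 8. Among 19 lipid droplet genes only Mgll, the monoacylglycerol lipase, was counted, as lower (-1.39), and among 18 apolipoprotein and lipoprotein genes 0 were counted, with Scarb1, the receptor for high-density lipoprotein, having the largest difference at -0.59.

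Fatty acid oxidation genes under the receptor PPAR-alpha were lower or alike. Of 26 measured, 0 were counted as higher and 3 as lower, the sides did not overlap for 11 in the lower direction and for 0 in the higher direction, against 7.43% and 7.21% of all probe sets, and the median was -0.33. The counted genes were Vnn1 (-2.44), Angptl4 (-1.31) and the peroxisomal thiolase gene Acaa1b (-1.05). Smaller differences without overlap included Cyp4a10, an omega-hydroxylase, at -0.90 and Slc25a20, the mitochondrial carnitine carrier, at -0.75. Leaving out single arrays gave 2 counted as lower without array 9 and 6 without array 7. With 1 array fewer an absence of overlap is easier to reach, so a count can rise for that reason alone.

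Amino acid genes leaned the other way. Of 21 measured genes listed for the urea cycle and amino acid catabolism 2 were counted as higher and 0 as lower. The sides did not overlap for 8 in the higher direction and 0 in the lower, and the median was 0.32. Of all probe sets 0.270% were counted as higher and 7.21% were higher without overlap. The counted genes were Got1 and Asns, which synthesises an amino acid rather than breaking one down. Only Asns was counted without array 11. Slc25a15, the mitochondrial ornithine carrier, read 14.20, 14.39 and 14.67 against 13.81, 13.59 and 13.55, a difference of 0.77. Gldc, of glycine cleavage, had 0.63. In the stress response list of the transcription factor ATF4, to which Asns belongs, 1 of 23 measured genes was counted as higher and 0 as lower (median 0.17). Atf4 itself had -0.38, Atf5 0.91, the cystathionine lyase gene Cth 0.80 and the pseudokinase gene Trib3 -0.25, and the sides did not overlap for Atf5 and Cth.

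Genes that mark zones of the lobule were counted in opposite directions. Among 15 pericentral genes 0 were counted as higher and 3 as lower: Cyp2c37 (-1.76), Cyp2c50 (-1.20) and Cyp1a2 (-1.08), all cytochromes P450. The sides did not overlap for 8 of the 15, all lower, and the median was -0.66, where 0.495% of all probe sets were counted as lower and 7.43% were lower without overlap. The alcohol-oxidising Cyp2e1 had -0.50, read from 18.09 to 18.58 on the Tff3-high side and from 18.81 to 18.86 on the Tff3-low side. Among 14 periportal genes 2 were counted as higher, Cyp17a1 (4.39) and the mitochondrial aldehyde dehydrogenase gene Aldh1b1 (1.72), and 0 as lower, with a median of 0.20. Cyp17a1, a leading gene of the split, is counted again on the female-biased and steroid lists below. The sides did not overlap for 4 of the 14 in the higher direction and 1 in the lower, against 7.21% and 7.43% of all probe sets. The share of all probe sets counted as higher was 0.270%. Drug metabolism genes under the receptors CAR and PXR showed both directions, with 1 of 19 counted as higher (Cyp2b10) and 4 as lower. The lower ones were Cyp2c37, Cyp2c50, Cyp2c54 (-1.54) and Nr1i3 (-1.59), the gene of CAR itself. Their median was -0.03.

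Sex-biased genes were counted in opposite directions on the male-biased and the female-biased list. Of 25 measured growth hormone-responsive and male-biased genes 4 were counted as lower and 0 as higher (median -0.44), and the sides did not overlap for 10, all lower, against the same shares of all probe sets (0.495% and 7.43%). The counted ones were Hsd3b5, given above, the cytochrome P450 Cyp2d9 (-1.57), the complement regulator Susd4 (-1.37) and the organic anion carrier Slco1a1 (-1.09). Slco1a1 read 16.17, 16.34 and 13.77 on arrays 8, 10 and 11 and 16.62, 16.51 and 16.43 on arrays 7, 9 and 12, and its difference was -0.27 without array 11. Of 19 measured female-biased genes 3 were counted as higher and 0 as lower, with a median of 0.02: Cyp17a1, Abcd2 and Atp6v0d2. The share of all probe sets counted as higher was 0.270%. Without array 11 the female-biased count was 2 higher and 1 lower, and without array 7 it was 3 higher and 1 lower. The hormone receptor gene Ghr had -0.19, Igf1 0.06 and the feedback inhibitor gene Cish -1.48, the last with overlapping sides (5.68, 5.15 and 7.84 against 7.55, 5.73 and 9.83).

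Steroid-metabolising genes showed both directions as well, with Cyp17a1 counted as higher and Hsd3b5 as lower among 17 measured (median -0.34). The sides did not overlap for 2 of the 17 in the higher direction and 4 in the lower. Of all probe sets 0.270% were counted as higher and 0.495% as lower, and 7.21% and 7.43% had no overlap. Of 20 bile acid genes 1, Slco1a1, was counted as lower and 0 as higher (median -0.13). That count was 0 without array 11. Without a limit of size the sides did not overlap for 6 of the 20 in the lower direction and 1 in the higher. Cyp7a1, the rate-limiting enzyme of bile acid synthesis, had 0.94 with overlapping sides.

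**Figure D4:**
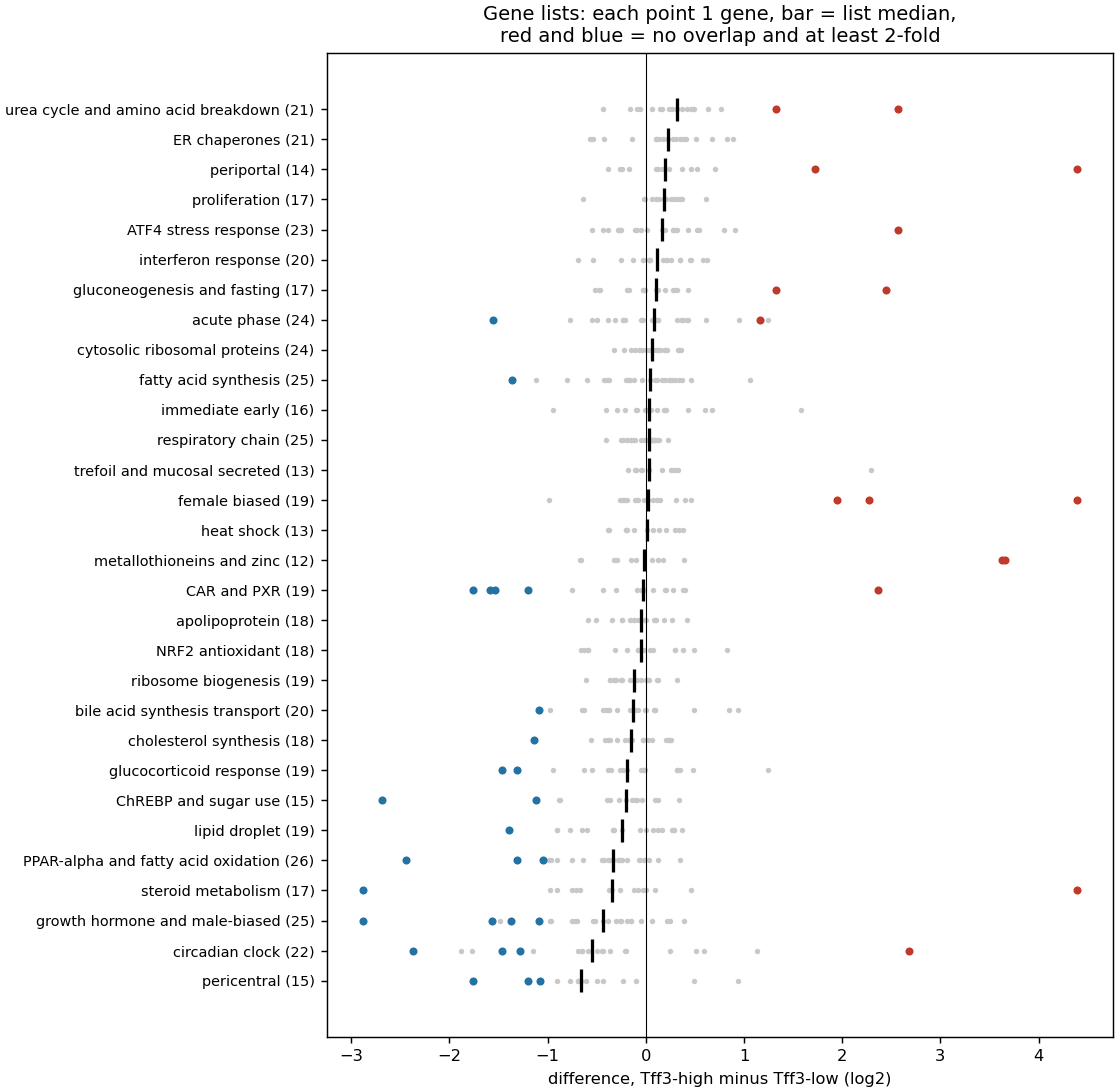
Difference between the Tff3-high and Tff3-low means (horizontal axis, log2) for the members of 30 gene lists (rows, number measured in brackets), 1 point per gene, with the list median as a bar. Red and blue points are genes counted as higher or lower, and the medians run from 0.32 for the urea cycle and amino acid list to -0.66 for the pericentral list.

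Among clock genes, part of the difference lay in Tff3-low arrays that departed from the WT-dam range. Of 22 measured, 1 was counted as higher (Noct) and 3 as lower, with a median of -0.55. Of all probe sets 0.270% were counted as higher and 0.495% as lower. Without a limit of size the sides likewise did not overlap for 1 clock gene in the higher direction and 3 in the lower. The shares of all probe sets without overlap were 7.21% and 7.43%. Usp2, a rhythmic deubiquitinase, read 4.66, 5.07 and 4.45 on arrays 8, 10 and 11 and 5.88, 8.16 and 7.26 on arrays 7, 9 and 12, so arrays 9 and 12 lay above the WT-dam range of 4.98 to 6.68. Being below background on the whole high side, it was at least 1.79-fold lower there. Per1 (-1.46) and Ciart (-1.28), both repressors of the clock loop, were brightest on array 9 at 8.76 and 7.18, above WT-dam ranges of 5.82 to 7.91 and 4.71 to 6.30. Ciart, below background on the high side, was at least 1.04-fold lower, and its difference was -0.85 without array 9. Bhlhe40 (-1.88), Bhlhe41 (-1.77) and Dbp (-1.46), further clock output genes, had overlapping sides, and array 7 was the Tff3-low array nearest to the high side for all 3. The activator gene Arntl, which peaks opposite to these, had 1.13 with overlapping sides. Without array 9 the lower count was 1, without array 7 it was 9 with 3 higher, and without array 11 it was 5. Here too, part of a rise can come from the smaller number of arrays that must not overlap. The time of day at which each liver was taken is not given in the labels, and its part in these differences was not tested.

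Leaving out 1 array moved the count of any list in either direction by at most 2 members, except for the fatty acid oxidation and clock lists as given. Stress, growth and quality genes gave few counted members, where 0.270% of all probe sets were counted as higher and 0.495% as lower. Of 24 acute phase genes the serum amyloid gene Saa2 was counted as higher (1.16) and the interleukin receptor gene Il1r1 as lower (-1.56). Saa2 was no longer counted without array 9 or array 11. The lists of interferon response (20 genes, median 0.11), endoplasmic reticulum chaperones (21, median 0.23), heat shock (13, median 0.01) and antioxidant response (18, median -0.05) held 0 counted members in either direction. So did immediate early genes (16, median 0.03), cytosolic ribosomal proteins (24, median 0.06), ribosome biogenesis (19, median -0.12), the respiratory chain (25, median 0.03) and proliferation (17, median 0.19). The antioxidant gene Hmox1, which degrades heme, had 0.83. The early growth gene Egr1 had the largest difference among the immediate early genes, 1.58, with overlapping sides and 0.73 without array 9.

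Markers of other cell types were examined because Tff3 and Cyp17a1 are textbook products of goblet cells and of steroid-making glands. Of 14 markers of goblet and intestinal epithelium 0 were counted as higher or lower. The goblet cell markers Muc2, Agr2, Clca1 and Zg16 and the intestinal factors Cdx1 and Cdx2 were below background on all 12 arrays, with Muc2 at 4.86, 4.88 and 4.51 on arrays 8, 10 and 11. The summed linear signal of the list was 5115 to 6587 on the Tff3-high arrays, 3719 to 6407 on the Tff3-low arrays and 4464 to 7330 on the WT-dam arrays, mostly from Fabp2. Of 9 adrenal and gonadal markers, all but Cyp21a1 were below background on every array, including the steroidogenic regulators Star and Nr5a1 and the enzyme genes Cyp11a1 and Cyp11b1. Their summed signal was 358 to 389, 350 to 356 and 315 to 521 in the same order, so the sides did not overlap but both lay inside the WT-dam range.

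The bile duct markers Krt19 and Epcam were below background on every array, and the 9 measured cholangiocyte markers summed to 1696 to 12055 on the Tff3-high, 2096 to 12948 on the Tff3-low and 2764 to 17873 on the WT-dam arrays, mostly through Onecut1, which hepatocytes express too. Pancreatic acinar markers (9 genes, sums of 449 to 486, 470 to 567 and 374 to 464) and lists for red blood cells, lymphocytes, neutrophils and fibroblasts held 0 counted members. The sums for adipocyte markers were 197438 to 254652 on the Tff3-high arrays, below the 281245 to 333721 of the Tff3-low arrays and the 271594 to 356503 of the WT-dam arrays. These sums came almost wholly from Car3, which liver also expresses. Car3 read 17.59, 17.96 and 17.85 on arrays 8, 10 and 11 and 18.10, 18.29 and 18.35 on arrays 7, 9 and 12, a difference of -0.45. Among the 7 members 0 were counted, and the median difference was 0.12.

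Sinusoidal endothelial markers did differ between the sides. Their summed signal was 30343 to 31338 on the Tff3-high arrays, below all Tff3-low arrays (39799 to 46811) and all WT-dam arrays (37401 to 46358). The sides did not overlap for 5 of the 12 members in the lower direction, against 7.43% of all probe sets. Those 5 included Dnase1l3 (-0.80), Fcgr2b (-0.69), the hyaluronan receptor gene Stab2 (-0.60) and the lectin gene Clec4g (-0.56), though none reached 2-fold. Lyve1, a hyaluronan receptor of the same cells, was counted in the other direction, with 9.69, 8.64 and 9.15 against 7.88, 8.11 and 7.81, a difference of 1.22 (0 counted as higher without array 8). In whole liver RNA, fewer cells of a type and less RNA per cell cannot be told apart. Among 11 macrophage markers the scavenger receptor genes Marco (1.13) and Cd163 (-1.09) were counted in opposite directions, and the sums of 8767 to 15619 and 10578 to 12178 overlapped. Marco was not counted without array 8, nor Cd163 without array 7 or array 11. The part of these cell types in the gene differences above was not tested.

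**Figure D5:**
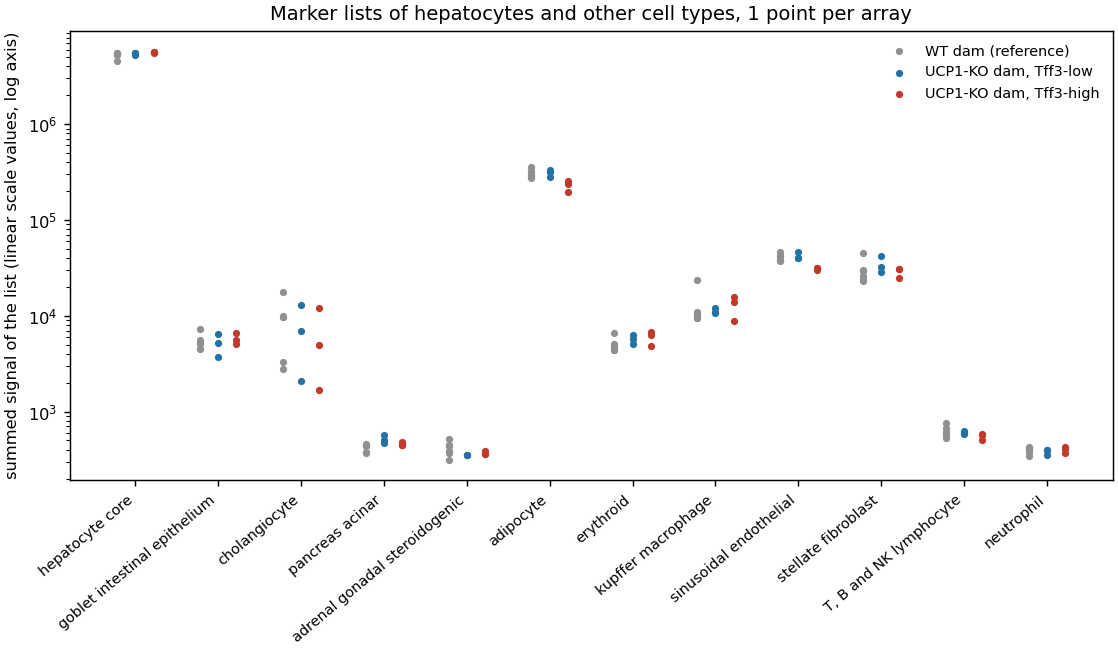
Summed linear signal of marker lists for hepatocytes and 11 other cell types (vertical log axis), 1 point per array, coloured by WT-dam, Tff3-low and Tff3-high arrays. Hepatocyte sums are 4509584 or more on every array, goblet sums overlap between the sides, adrenal sums differ little (358 to 389 against 350 to 356), and the sinusoidal endothelial sums of the Tff3-high arrays, at 30343 to 31338, lie below the rest.

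The comparison the study was designed for, offspring of UCP1-KO dams against offspring of WT dams, was tested over all 22206 probe sets with limma and Benjamini-Hochberg adjustment to see whether the leading genes differ by dam genotype too. It called 8 probe sets (0.0360%) at an adjusted p under 0.05, 1 higher and 7 lower, and 2906 had an unadjusted p under 0.05. Leaving out single arrays gave 112 calls without array 2, 54 without array 7 and 1 to 5 without arrays 3, 6, 8, 9 or 11. Of the 30 leading genes other than Tff3, 0 passed (limma adjusted p = 0.134 to 0.99), while 10 passed 0.05 before adjustment. Pklr had a log2 difference of -2.05 (limma adjusted p = 0.134), Slc22a7 -1.73 (adjusted p = 0.137) and Asns 1.46 (adjusted p = 0.190). For Mt2, with 0.63 (adjusted p = 0.858), WT-dam array 2 stood with the Tff3-high arrays. The spread of these genes inside the UCP1-KO-dam group enters this test as its error, and since both use the same 6 arrays the results are not independent of the split.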

How the data were processed

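Liver RNA of 12 mice was hybridised to 1 gene-level array per mouse. The deposited values are log2 signals, made by the authors, whose tools per the submitters' processing notes were RMA and the Transcriptome Analysis Console; versions are not given in the sources used here. RMA makes arrays alike in their distribution, which reduces shifts of most genes in one direction and compresses differences between dim probe sets. The small number of arrays limits the precision.

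Groups came from the dam genotype in the labels. The 6640 control rows were left out, except that 5222 negative controls gave each array's background. Of 22206 gene probe sets 19572 had 1 symbol in the platform annotation, 0 several and 2634 none. The 6 UCP1-KO-dam arrays were divided at a Tff3 value of 8, and the other 22205 probe sets were compared as means with no filter and no test. A difference was counted when the sides did not overlap and the means differed by at least 1 log2. Folds are 2 to the power of the log2 difference of means. Where every array of the dimmer side was below background, each was set to its negative control median and the fold is a lower bound. Summed signals add the list's linear values.

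The dam comparison used lmFit and eBayes of limma 3.58.1 under R 4.3.3 (two-sided, Benjamini-Hochberg), tested on simulated data first; other steps used Python 3.11.15. Since litters are not given, p-values describe variation among possibly related mice. Members and gene lists (42, with 637 of 718 genes measured) were chosen with earlier results of these data known. Named are Tff3, Mmd2, Cyp17a1, Mt1, Mt2, Pklr and Dmbt1, then the 12 further symbols with the largest difference in each direction whose brighter side was above background on every array, then up to 4 counted members of each list (up to 8 for sugar, fatty acid, fasting, steroid, metal and glucocorticoid lists) or, with none counted, the member with the largest difference. Other list members named for their role were chosen after their values were seen. Alternatives were quantile normalization, median centring, filters on dim probe sets, averaging per symbol, other limits of size, a variance trend with robust estimation, and leaving out each array. The array annotation names no build, so gene coordinates are not given; promoters carry RefSeq's GRCm38.p6.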

Additional observations from a re-analysis of the deposited data

Results flagged for a closer look

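Among 62 groups of 6 arrays looked at for the leading genes, 9 held 1 array whose gap to the nearest other array took up an unusually large part of the group's range (over 0.625, Dixon's limit for 6 values). Chance flags about 1 in 20 groups taken without regard to their values. Most genes here were picked for how the 6 UCP1-KO-dam arrays divide, so that rate does not apply to the UCP1-KO-dam groups.

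Within the UCP1-KO-dam arrays, array 11 stood apart for the metallothionein gene Mt2 at 15.59 (others 8.26 to 10.89) and for the steroid dehydrogenase gene Hsd3b5 at 9.92 (others 15.08 to 16.47).

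Among the WT-dam arrays, array 2 stood apart for Mt1 at 16.16 (others 10.87 to 12.12) and Mt2 at 14.91 (others 8.21 to 9.42). Array 6 stood apart for Tff3 at 5.77 (others 3.87 to 4.48), below its negative control median of 6.41, and on the low side for Cyp17a1 at 6.41 (others 8.74 to 9.80) and Tcf24 at 4.58 (others 5.90 to 6.12). Array 1 was lowest for Dmbt1 at 4.78 (others 6.92 to 8.18), and array 5 for Hsd3b5 at 15.73 (others 16.33 to 16.61).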

How the results depend on the processing

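The counts of 60 higher and 110 lower probe sets were 388 and 486 at a limit of 1.5-fold and 1602 and 1650 with no limit of size. Leaving out each array in turn gave 59 to 104 higher and 105 to 155 lower. Fewer arrays make an absence of overlap easier to reach, so these counts can rise for that reason alone. They stayed within 1.5 times under quantile normalization (62 and 92), median centring (49 and 120), the brighter 50% of probe sets (48 and 102), without the dimmest 25% (59 and 110) and per symbol (52 and 93). The higher count without array 10 was 104. Each of the 2 rescalings is within 10 percentage points of the deposited values in the share of higher calls, while they differ from each other by more. The median difference over all probe sets was 0.01 as deposited, -0.04 when centred and 0.00 after quantile normalization.

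The count of 8 by dam genotype was 32 in the brighter 50% and 22 with a variance trend and robust estimation. Leaving out each array gave 1 to 112. The count was 112 when array 2 was dropped, 54 for array 7, 5 for array 11, 4 for array 9, 3 for array 3, 2 for array 6 and 1 for array 8. The cause was not tested.

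Of 1380 recomputed differences of named genes 2 moved by more than the spread between arrays, both after quantile normalization (Uqcrc2 of the respiratory chain, from -0.41 to -0.31, and Ghr, from -0.19 to -0.11). Of the genes counted as higher or lower 0 changed sign. Genes with overlapping sides did change sign when single arrays were left out, for example Tsc22d3 (-0.88 to 0.10), G6pc (-0.37 to 0.37) and Fasn (-0.31 to 0.45). No paired analysis was possible because the groups share no replicate number. With 3 arrays a side and a split made on these arrays, the size of a difference carries no error rate.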

Other observations

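Several further probe sets counted as higher or lower belong to no list above and were singled out after their values were seen. Higher were Agxt, the peroxisomal enzyme that detoxifies glyoxylate (1.57), Slc3a1, a subunit of the cystine and dibasic amino acid carrier (1.39), the macrophage perforin gene Mpeg1 (1.15) and Hamp2, a paralogue of the iron hormone hepcidin (1.07). Mpeg1 on Tff3-high array 10 (10.25) lay inside the WT-dam range of 9.60 to 10.80. Hamp2 read 17.68 on Tff3-low array 7, close to 17.76 on Tff3-high array 10, and its WT-dam median was 17.44. Il1rn, the interleukin-1 receptor antagonist, and the macrophage elastase gene Mmp12 were below background on all Tff3-low arrays and are given as bounds, at least 1.27-fold and at least 1.61-fold higher. Both were below background on Tff3-high array 10 too, where Il1rn read 5.35 against 5.34 on Tff3-low array 12. Lower were the carboxylesterase genes Ces2b (-1.60), Ces2e (-1.20) and Ces2g (-1.07), which may share probes, the retinol saturase gene Retsat (-1.52), Inhbe, which encodes the hepatic activin E subunit (-1.70), and the peroxisome growth gene Pex11a (-1.37). The acyl-CoA conjugation genes Acnat1 (-1.14) and Acnat2 (-1.16), close copies of each other, were lower as well.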
